A study of Homo sapiens with 6 samples.

Results

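The comparison described here set 2 libraries of the end point of a chemical protocol, day 5, against 2 libraries of the starting cells, day 0, out of 6 RNA sequencing libraries in the series. The other 2 libraries, from day 2, entered the fit for its estimate of spread, and their levels are given beside some results. Members were the 4 samples of those time points, and every gene with a name in the deposited table was considered. All cells were BJ, an established line of human foreskin fibroblasts with a wild-type genotype by the labels. The day 0 group was labelled as fibroblast cells and had grown in DMEM with serum on dishes coated with poly-D-lysine. The day 5 group had then spent the days to day 2 in neuronal induction medium and the rest in neuronal maturation medium, both with 10 µM forskolin, and was labelled FiN and induced neuron cells. Time, medium and forskolin changed together between the groups and cannot be told apart. BJ is 1 cell line, and nothing in the labels ties the 2 libraries of a day to different cultures. The p-values therefore rest on the spread between libraries alone, and that spread may be technical.

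Forskolin, a plant diterpene, activates adenylyl cyclases, the enzymes that make cAMP. This second messenger activates protein kinase A, which phosphorylates CREB, a transcription factor that binds the cAMP response element of its target genes, and phosphodiesterases end the signal by degrading cAMP. In fibroblasts a rise in cAMP is known to loosen actin stress fibres and to oppose contraction, while serum, which the day 0 medium contained, drives growth factor signalling and SRF-dependent contractile genes.

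Levels are CPM, counts scaled to a fixed library total after TMM scaling, which corrects for differences in RNA composition. Log2 fold changes are day 5 over day 0 and are given with their standard error (SE), while ± after a CPM is the SD of the 2 libraries of a day. A gene was called at a Benjamini-Hochberg adjusted p under 0.05 over all tested genes, by edgeR's quasi-likelihood test. The libraries held 23110118 and 26689379 counts at day 0 and 17599457 and 19306802 at day 5, so that 3 counts stood for 0.118 and 0.103 CPM in the former and 0.180 and 0.164 CPM in the latter. Of 16327 tested genes, 5839 were higher at day 5 (35.8%) and 5566 were lower (34.1%), or 69.9% in all. Counts of higher and lower members of every gene list below are to be read beside these shares. Both libraries of one day lay above both of the other for 84.5% of tested genes. When the test asked for more than a 2-fold change (glmTreat), 20.1% of genes passed: 1591 genes (9.74%) were higher and 1687 (10.3%) lower. The middle 50% of genes lay between log2 fold changes of -0.56 and 0.67. Scaling by library totals moved the median gene by -0.21 log2, and 39.0% of calls were then higher against 51.2% with TMM factors. The changes given here are relative to TMM scaling. Genes higher by more than 2-fold held 5.61% and 5.63% of the counts at day 0 and 30.8% and 30.9% at day 5, of which IGFBP5 alone took 10.7% of each day 5 library. Genes lower by more than 2-fold went from 22.7% and 22.8% of the counts to 5.46% and 5.50%.

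**Figure D1:**
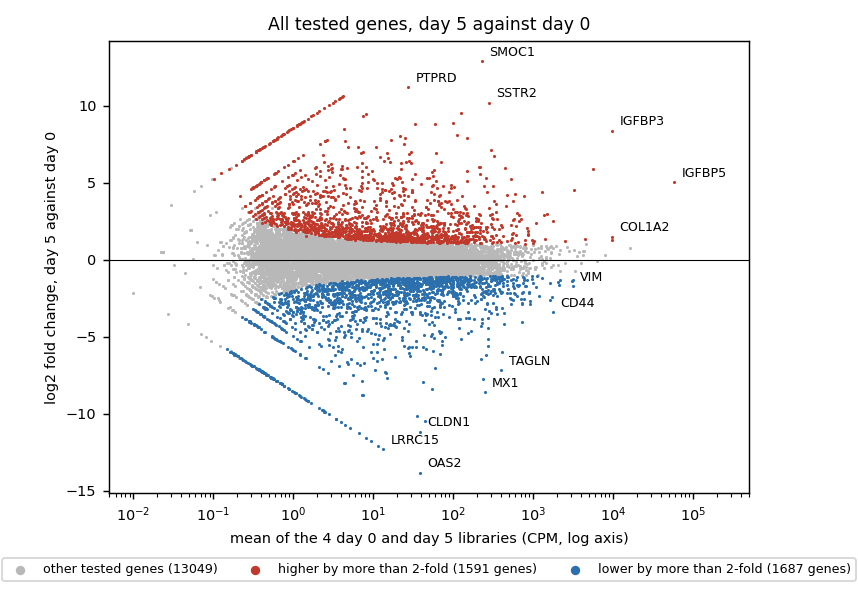
Log2 fold change of each tested gene, day 5 against day 0, against its mean level over the 4 libraries (CPM, log axis). Red marks the 1591 genes higher and blue the 1687 genes lower by more than 2-fold, the diagonal edges are genes without counts on one of the days, and IGFBP5 and IGFBP3 stand apart at the right with high levels and large rises.

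The genes with the largest rises included several of secreted and cell-surface proteins. SMOC1, a secreted calcium-binding matrix protein on chromosome 14 at 69854131 to 70032366 of GRCh38, had 2 and 1 counts at day 0 and 7619 and 8297 at day 5, 457 and 453 CPM. The ratio of its pooled levels was 8255, with a counting interval of 2824 to 40036 (exact 95% interval). PTPRD, a receptor tyrosine phosphatase that organises synapses, lies on chromosome 9 at 8314246 to 10612723 and went from 0 and 1 counts to 924 and 1009. SSTR2, a receptor for somatostatin on chromosome 17 at 73165012 to 73176633, was at 0.237 and 0.687 CPM in the day 0 libraries and at 576 and 561 CPM in those of day 5 (a log2 difference of 10.20 ± 0.10, with an edgeR adjusted p of 6.1e-22). The 3 genes were low in both day 0 libraries and high in both day 5 libraries. A lack of overlap was part of the rule that chose them, and 84.5% of all tested genes had it. ADAMTS4, a protease that cleaves aggrecan and versican, rose from 0.327 ± 0.0721 to 249.5 ± 13.5 CPM, and ABI3BP, a matrix protein, from 0.433 ± 0.224 to 202 ± 0.0506 CPM. The placental growth factor PGF, a ligand of the VEGF receptor FLT1, rose 282-fold to 215 and 228 CPM. PDE3A, a cAMP phosphodiesterase, was at 0.316 and 0.206 CPM and then 121 and 117 CPM, and PDZD2, a protein with several PDZ domains, at 0.0394 and 0.241 and then 68.1 and 66.9 CPM. At day 2 SMOC1, SSTR2 and ABI3BP stood at 1.36, 1.24 and 0.336 CPM, far below their day 5 levels.

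The summed CPM of the insulin-like growth factor (IGF) axis grew more than that of any other gene list here, from 7080.2 and 7121 CPM to 141000.0 and 140943 CPM, through its binding proteins. IGFBP5 stood at 3467 and 3465 CPM before the protocol and at 113097 and 113084 CPM after it (a log2 difference of 5.03 ± 0.01, with an edgeR adjusted p of 3.8e-32). IGFBP3 was at 59.2 and 58.4 CPM and then 19671 and 19535 CPM (8.38 ± 0.02), while its day 2 mean was only 128 CPM. Both pairs of libraries were far apart and each pair lay close together. IGFBP2 neighbours IGFBP5 on chromosome 2 (216632828 to 216664436 and 216672105 to 216695525), and IGFBP1 neighbours IGFBP3 on chromosome 7 (45888357 to 45893668 and 45912245 to 45921874). The neighbours rose too, IGFBP2 from 1.24 to 295 CPM and IGFBP1 from 0 and 5 counts to 103 and 86. Per kilobase of the deposited gene length, IGFBP5 went from 556 to 18126 CPM, against 996 to 2824 for the collagen gene COL1A2 and 2252 to 680.4 for the intermediate filament gene VIM.

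The other genes that gained the most CPM were the protease inhibitors TFPI2 (from 190.2 to 11081 CPM) and TIMP3 (from 272 to 6223 CPM), the collagen chains COL1A2 (from 5053 to 14326 CPM), COL6A3 (from 5672 to 13587 CPM) and COL3A1 (from 2543 to 6441 CPM), the mitochondrial MT-CO1, the matrix protein TGFBI and the plasminogen activator PLAT (from 531 to 3059 CPM). The largest losses in CPM were those of VIM, CD44, ACTB, FTL, FTH1, CCND1, AHNAK, PKM, FLNA and ACTG1. VIM was at 4845 and 4857 and then 1458 and 1474 CPM (log2 fold change -1.73 ± 0.01). CD44, the receptor for hyaluronan, went from 3249 and 3269 to 307 and 313 CPM (-3.39 ± 0.02), and the cell cycle cyclin CCND1 from 2785 and 2829 to 456 and 445 CPM. The ferritin chains FTL and FTH1, which store iron, fell by less, with log2 fold changes of -0.89 ± 0.01 and -1.31 ± 0.01, and had been at 12724 and 7628 CPM at day 2.

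**Figure D2:**
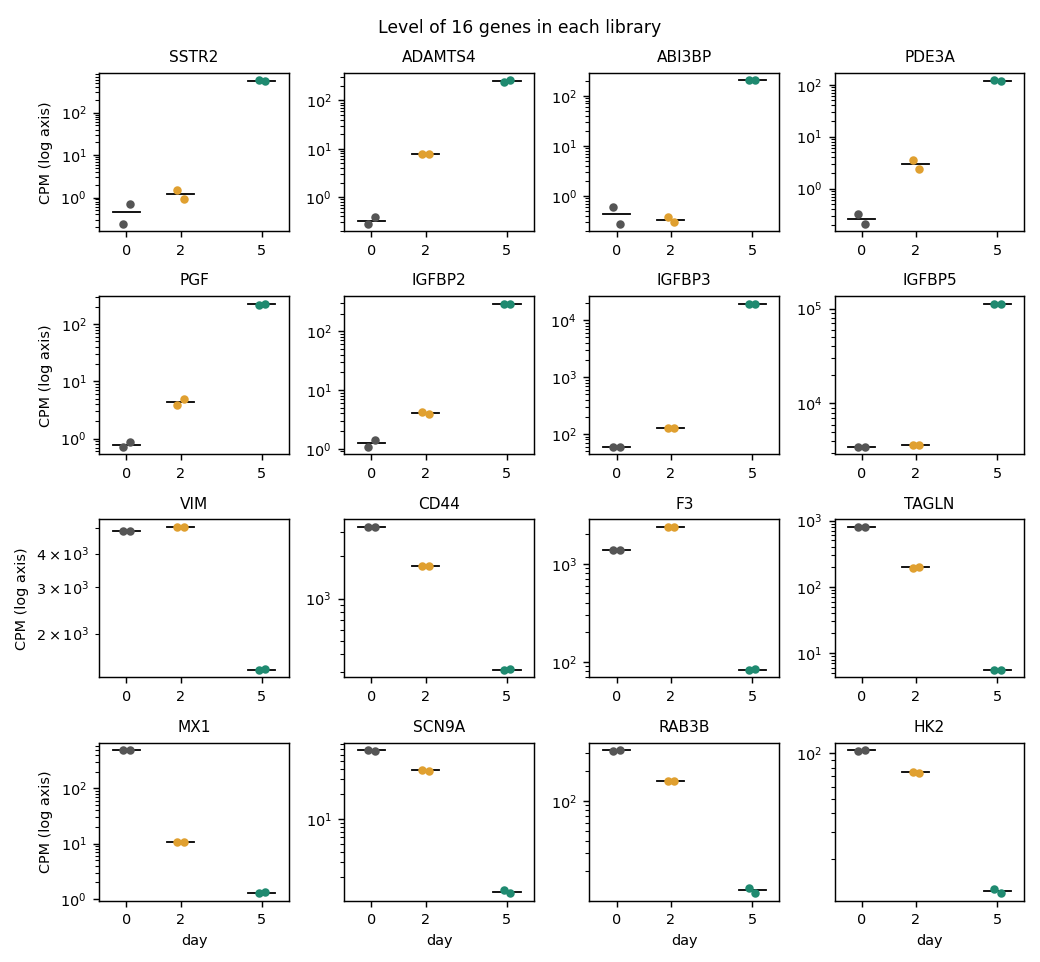
CPM (log axis, a range of its own in each panel) of 16 genes in the 2 libraries of day 0, day 2 and day 5; points are libraries and bars are means. The libraries of a day lie close together except at levels of a few CPM or less, and the rises of SSTR2, ABI3BP, IGFBP3 and IGFBP5 came almost wholly after day 2, while most of the fall of MX1, to 10.6 CPM, came before it.

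Few genes went from or to nothing. With at most 3 counts over both libraries of one day and at least 5 CPM in both of the other, 14 genes were gained at day 5 and 25 were lost. Besides SMOC1, PTPRD, BMP6 and SYT7, the gained genes included HTR2A (a serotonin receptor, 0 and 0 counts and then 148 and 149) and the chemokine gene CCL7 (0 and 0 and then 143 and 142). The integrin chain ITGB2 and the growth factor IGF1 also had 0 counts in both day 0 libraries. Against a floor of 3 counts over both libraries, HTR2A was at least 154-fold higher, CCL7 at least 148-fold, ITGB2 at least 141-fold and IGF1 at least 113-fold. Lost genes included OAS2, which senses double-stranded RNA, at least 896-fold lower, LRRC15, a membrane protein of activated fibroblasts, at least 313-fold, the calcium-binding calretinin gene CALB2, at least 222-fold, and the carboxypeptidase CPA4, at least 191-fold. CLDN1, a tight-junction claudin, went from 2045 and 2195 counts to 1 and 0, and the methyltransferase gene INMT from 2165 and 2673 to 2 and 0. JPH2, which ties the plasma membrane to the endoplasmic reticulum in muscle, fell from 345 and 473 counts to 0 and 1. The day 2 means of the lost genes lay between those of day 0 and day 5, for instance INMT at 7.13 and CLDN1 at 8.25 CPM.

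Fibroblast markers were kept but rearranged at day 5. Each of the 26 listed genes had a mean of at least 1 CPM on both days. Of them 14 rose and 12 fell, with a median of 0.32 against 0.04 over all tested genes. In bulk RNA fewer cells of a type and less RNA per cell cannot be told apart. PDGFRA, the PDGF receptor of mesenchymal cells, was at 341 and 328 CPM and then 2673 and 2609 CPM (2.98 ± 0.02). PRRX1, a mesenchymal homeobox factor, was at 6.23 and 7.90 CPM and then 137 and 127 CPM (4.21 ± 0.08). The factor TWIST1 rose from 6.80 to 28.5 CPM and the collagen receptor DDR2 from 154 to 446 CPM. The surface proteins THY1 and NT5E fell from 427 to 104 CPM and from 433 to 29.8 CPM, the proteoglycan DCN from 1044 to 202 CPM and the calcium-binding protein S100A4 from 39.7 to 2.36 CPM. COL1A1 changed little, from 4284 ± 111 to 3725 ± 69.7 CPM, a log2 fold change of -0.20 ± 0.02.

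Markers of neurons were mostly absent or lower, which goes against the label of the day 5 cells. Of 35 pan-neuronal genes, 19 had too few counts to be tested and 8 had 0 counts in all 4 libraries. Of the 16 tested, 2 rose, 9 fell and 5 were not called, with a median of -1.18. Members near 0 at day 5, such as L1CAM, passed the filter on low counts through earlier libraries, which largely sets their direction. Of the 35 listed, 13 had a mean of at least 1 CPM at day 0 and 9 at day 5. At most 3 counts over both day 5 libraries were found for 20 of the 35. The summed level of all 35 went from 1298 and 1316 to 379 and 383 CPM. Most of that sum on both days, and most of its fall, came from the 1 gene UCHL1. The neurofilament genes NEFL had 6 and 1 counts in the day 0 libraries and NEFM had 2 and 0. Neither had a count at day 5, which allows up to 0.180 CPM in the shallower library. DCX, of migrating young neurons, had 0 and 1 counts at day 5, and RBFOX3, a nuclear protein of neurons, 6 and 8. UCHL1, a ubiquitin hydrolase abundant in neurons, was at 969.8 and 978 CPM and then 214 and 208 CPM (-2.21 ± 0.02). The sodium channel SCN2A fell from 18.3 to 0.665 CPM, the adhesion protein L1CAM from 7.49 to 0.0573 CPM and the intermediate filament INA from 10.4 to 2.86 CPM. The pair that rose was SCG2, a granin of secretory vesicles, at 1.22 and 0.962 and then 31.5 and 36.0 CPM, and SNAP25, a protein of vesicle fusion, at 5.76 and 6.01 and then 16.9 and 19.8 CPM.

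Of 35 neurogenic transcription factors 28 could not be tested, 20 of them with 0 counts in all 4 libraries, and 7 were tested. A gene passes the filter on low counts through either day, so for members near 0 at day 0, such as DLX1 and PROX1, the filter largely sets the direction, and no count is read over the tested members. SOX4 was at 99.0 and 95.9 and then 421 and 417 CPM, HES6 at 2.68 and 2.37 and then 55.5 and 62.1 CPM, and SOX11 at 10.3 and 9.04 and then 21.9 and 23.1 CPM. EBF3 rose to 4.26 CPM, and DLX1 went from 1 and 0 counts to 24 and 29. Levels of the other tested members, EBF1 and PROX1, named after their values were seen, were 5.68 and 1.12 CPM at day 5.

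**Figure D3:**
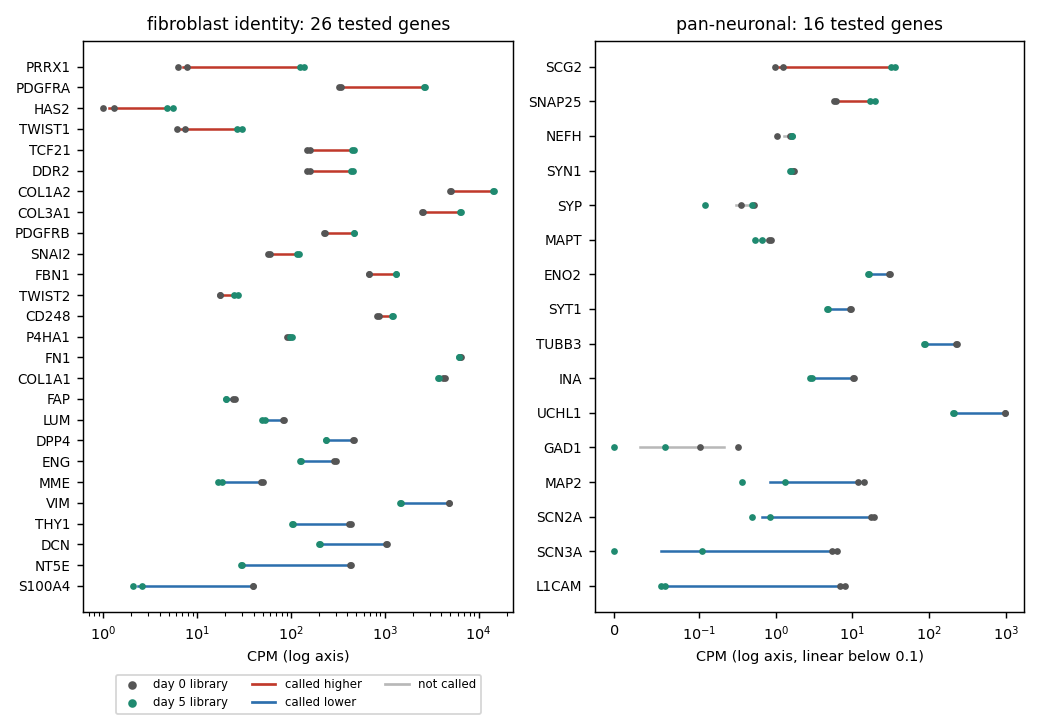
CPM of the tested fibroblast identity genes (left) and pan-neuronal genes (right) in each day 0 library (grey) and day 5 library (green), joined by a line in red where the gene was called higher and blue where lower; axes are log, and the right one is linear below 0.1. The fibroblast genes split into 14 higher and 12 lower, while SCG2 and SNAP25 are the pan-neuronal genes called higher.

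Among markers of other cell types, in the glial list 5 of 6 tested genes rose and 0 fell, a count of higher genes that was 3 with library totals, with DESeq2 and with the filter of 1 CPM, 2 without day 0 replicate 1 and 3 without any 1 of the other libraries. Its astrocyte filament GFAP had 21 and 32 counts and then 10 and 28 and was not called, and 7 of 16 listed genes were at 0 in all 4 libraries. In that list 3 genes had a mean of at least 1 CPM at day 0 and 5 at day 5. For its members near 0 at day 0 the filter on low counts largely sets the direction. Among endothelial genes 2 of 5 tested rose and 1 fell (3 with library totals, 2 without day 0 replicate 1), and among leukocyte genes 1 of 3 rose and 2 fell. The VEGF receptor KDR was at 3.71 and 4.61 and then 63.4 and 60.1 CPM and the claudin CLDN5 at 0.0394 and 0.206 and then 8.70 and 7.42 CPM, while PECAM1 had 9 and 7 counts and CDH5 none at day 5. In the muscle list, with 2 of 6 tested higher and 3 lower, the actin-binding LMOD1 fell from 88.9 to 1.63 CPM and CNN1 from 36.7 to 1.77 CPM, and the SRF coactivator MYOCD rose from 4.86 to 12.9 CPM. The summed CPM of each list was 10.4 and 12.6 at first and 24.3 and 25.9 in the end for glia, 90.9 and 90.7 and then 153 and 149 for endothelium, 97.1 and 98.6 and then 50.4 and 46.4 for leukocytes, and 234 and 238 and then 91.0 and 92.4 for muscle. These small lists had 3 tested epithelial genes (1 higher, 1 lower), 4 adipocyte genes (1 higher, 2 lower) and 3 melanocyte genes (2 higher, 1 lower). Of the decidual markers, genes that endometrial stromal cells switch on under cAMP and progesterone, 5 of 8 tested rose and 2 fell. The count of higher genes was 3 without day 0 replicate 1, 3 from the day 0 and day 5 libraries alone and 1 with the filter of 1 CPM. Among them IGFBP1 reached 6.18 and 4.70 CPM and CEBPB, a C/EBP transcription factor, rose from 68.0 to 189 CPM, while the WNT inhibitor DKK1 fell from 10.3 to 0.363 CPM. Prolactin, PRL, had 0 and 0 counts at day 0 and 7 and 2 at day 5.

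Promoters are shown because their letters can be set beside the values. They come from the lists of cAMP and CREB targets, interferon-stimulated genes, and actin and focal adhesion genes. They belong to the 2 genes a list with the largest fold changes among those whose window holds the list's motif, so the matches were part of the choice. Each is the 250 bases before an annotated start (RefSeq, GRCh38.p14), 5′ to 3′ on the gene's strand, with motif matches in capitals. The motifs were the cAMP response element TGACGTCA, the core of the interferon-stimulated response element GAAANNGAAA, and the CArG box, searched on both strands.
CGA: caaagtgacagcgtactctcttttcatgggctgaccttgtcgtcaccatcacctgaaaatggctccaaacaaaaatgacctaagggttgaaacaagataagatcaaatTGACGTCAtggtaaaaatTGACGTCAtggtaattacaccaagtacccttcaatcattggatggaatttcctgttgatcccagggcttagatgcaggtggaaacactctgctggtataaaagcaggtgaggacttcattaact
AREG: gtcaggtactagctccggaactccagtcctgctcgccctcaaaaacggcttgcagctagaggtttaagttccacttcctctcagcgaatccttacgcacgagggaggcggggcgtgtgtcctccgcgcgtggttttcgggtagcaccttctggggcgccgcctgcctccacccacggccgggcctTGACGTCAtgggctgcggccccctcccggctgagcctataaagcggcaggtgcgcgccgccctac
RSAD2: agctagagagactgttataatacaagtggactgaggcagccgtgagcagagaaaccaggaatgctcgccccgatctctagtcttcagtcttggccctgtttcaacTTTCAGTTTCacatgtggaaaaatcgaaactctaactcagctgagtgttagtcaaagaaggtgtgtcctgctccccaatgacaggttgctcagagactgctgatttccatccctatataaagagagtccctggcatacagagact
MX1: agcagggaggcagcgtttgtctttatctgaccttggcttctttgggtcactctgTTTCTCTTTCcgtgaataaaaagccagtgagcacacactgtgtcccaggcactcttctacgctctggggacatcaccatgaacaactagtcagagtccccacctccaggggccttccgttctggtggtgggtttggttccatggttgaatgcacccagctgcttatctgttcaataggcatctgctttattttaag
ACTG2: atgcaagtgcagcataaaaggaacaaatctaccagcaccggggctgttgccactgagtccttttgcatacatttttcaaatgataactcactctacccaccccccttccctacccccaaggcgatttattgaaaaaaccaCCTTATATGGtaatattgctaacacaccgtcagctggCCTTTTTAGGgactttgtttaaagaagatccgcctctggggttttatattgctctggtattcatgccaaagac
MYLK: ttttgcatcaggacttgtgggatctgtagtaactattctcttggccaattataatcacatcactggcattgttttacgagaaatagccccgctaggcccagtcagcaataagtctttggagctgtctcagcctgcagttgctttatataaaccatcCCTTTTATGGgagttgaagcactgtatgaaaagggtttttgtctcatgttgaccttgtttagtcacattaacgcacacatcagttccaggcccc
CGA (chr6:87095107-87095356, minus strand) holds 2 cAMP response elements, and AREG (chr4:74444886-74445135, plus strand) holds 1. RSAD2 (chr2:6877527-6877776, plus, the window of 1 of its 2 annotated starts) and MX1 (chr21:41431800-41432049, plus, the window of 1 of its 3 annotated starts) hold the interferon motif in its TTTC form, on the other strand. ACTG2 (chr2:73892758-73893007, plus) holds 2 CArG boxes and MYLK (chr3:123620549-123620798, minus) holds 1. The MYLK gene spans 123610049 to 123884331 on the minus strand. Its window therefore precedes an internal start near the 3′ end, not the 5′ end of the gene. The CPM values below count whole genes, so they are not the level from that start. Among all 35116 windows, 1.65% held the cAMP response element, 3.02% the interferon motif and 1.16% the CArG box. Over tested genes with a window the shares were 3.38%, 3.44% and 1.53%. In the lists the matches were found in 6 of 34 cAMP and CREB targets, 14 of 21 interferon-stimulated genes and 8 of 28 actin and focal adhesion genes with a window. A match is a run of letters in this window and was not tested as a binding site.

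CGA, the shared alpha subunit of glycoprotein hormones, had 0 and 0 counts at day 0 and 34 and 45 at day 5, and the EGF receptor ligand AREG was at 15.3 and 13.6 CPM and then 879 and 879 CPM. RSAD2, an antiviral enzyme, was at 13.8 and 12.7 CPM and then at 0 counts in both libraries, and MX1, an antiviral GTPase, at 488 and 504 and then 1.26 and 1.31 CPM. ACTG2, a smooth muscle actin, was at 71.1 and 71.3 and then 6.72 and 7.10 CPM, and MYLK, the kinase of myosin light chains, at 1602 and 1642 and then 226 and 220.3 CPM. For each of the 6 genes the day 0 and day 5 libraries did not overlap, as for 84.5% of all tested genes. The choice of large fold changes made this likely from the start. The motifs were also present in genes that moved the other way: of tested genes with a window, the cAMP response element was in 4.44% of those higher and 2.34% of those lower by more than 2-fold, the interferon motif in 5.29% and 6.01%, and the CArG box in 2.93% and 2.42%.

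Of 41 tested components of the cAMP pathway 25 rose and 12 fell (median 1.07), 19 and 3 of them by more than 2-fold. Among phosphodiesterases PDE4D was at 2.60 and 2.06 and then 95.2 and 88.0 CPM, PDE10A at 4.62 and 4.71 and then 95.5 and 104 CPM and PDE7B at 9.98 and 10.2 and then 121 and 123 CPM. AKAP12, which anchors protein kinase A, rose 28.0-fold to 468 CPM. The cyclase ADCY3 rose from 51.8 ± 0.513 to 381 ± 0.767 CPM, the regulatory subunit PRKAR1A from 305 to 752 CPM and the CREB relative CREB5 from 1.68 to 35.3 CPM. Cyclases did not all rise: ADCY9 and ADCY7 were lower by more than 2-fold, while ADCY4, like ADCY3, was higher by more than 2-fold. Of 36 tested targets of cAMP and CREB 33 rose and 3 fell (median 1.93). Of the 40 listed, 30 had a mean of at least 1 CPM at day 0 and 35 at day 5. For members near 0 at day 0, such as CGA, the filter on low counts largely sets the direction. The coactivator PPARGC1A went from 1.54 and 1.13 to 44.1 and 45.3 CPM, the orphan receptor NR4A2 from 13.1 and 14.7 to 243 and 241 CPM and the phosphatase DUSP1 from 59.9 and 60.0 to 347 and 345 CPM. ATF3, a stress-induced factor of the same list, fell from 21.8 to 3.66 CPM. Of 14 tested RGS proteins, which shorten G protein signals, 6 rose and 6 fell. That is 42.9% each, near the 35.8% higher and 34.1% lower of all tested genes. Their median was 0.19 (-0.02 with library totals, 0.05 without day 0 replicate 2). RGS5 rose from 6.69 to 425 CPM and RGS4 from 6.27 to 184 CPM, while RGS20 fell from 14.7 to 0.966 CPM.

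**Figure D4:**
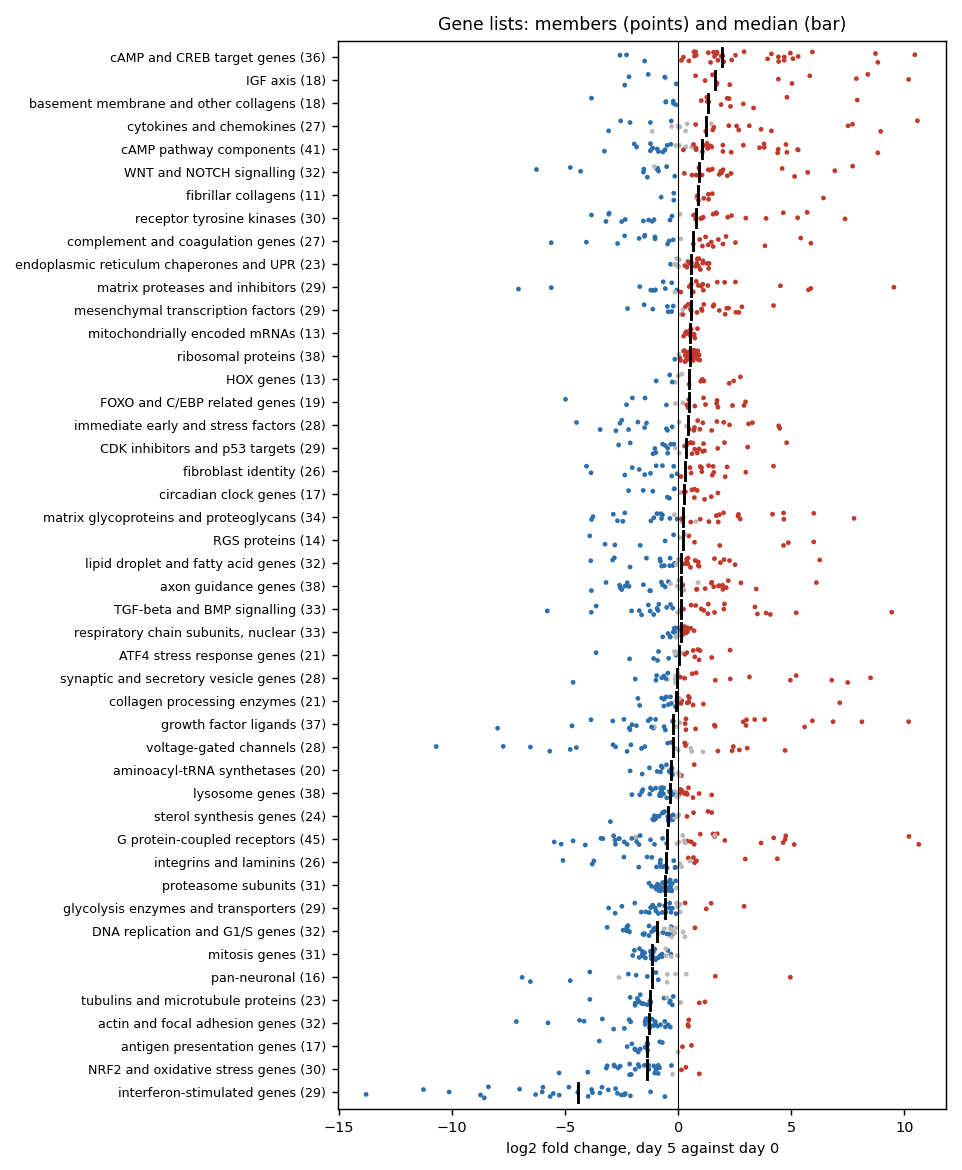
Log2 fold change of every tested member (points, red where called higher, blue where called lower, grey where not called) of the gene lists with at least 10 tested members, ordered by their median (bar); the number of tested members stands in parentheses. Targets of cAMP and CREB lie at the top with a median of 1.93 and interferon-stimulated genes at the bottom with -4.45, while lists such as growth factor ligands spread widely to both sides of 0.

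Collagen chains rose in most cases. Of 11 fibrillar collagens 7 rose and 3 fell (median 0.89), and of 18 basement membrane and other collagens 12 rose and 6 fell (median 1.31). COL5A3 was at 0.552 and 0.722 and then 55.6 and 55.2 CPM, COL21A1 at 0.158 and 0.241 and then 52.8 and 47.4 CPM, and COL4A6, of basement membranes, at 20.8 and 22.6 and then 605 and 610.3 CPM. COL18A1, the source of endostatin, rose 7.33-fold and COL8A1 10.1-fold. The enzymes that process collagen split, 9 higher and 10 lower of 21. The prolyl hydroxylase chain P4HA3 was at 4.34 and 4.09 and then 581 and 606 CPM (7.14 ± 0.05). The crosslinking enzyme LOXL2 fell from 868 to 266 CPM, and the procollagen protease ADAMTS2 from 153 to 44.4 CPM.

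Matrix glycoproteins and proteoglycans also split, 16 higher and 14 lower of 34, with a median of 0.20 (just below 0 with library totals, 0.04 without day 5 replicate 2). The large proteoglycan VCAN was at 81.9 and 82.4 and then 1494 and 1458 CPM, and the thrombospondin THBS2 at 6.98 and 6.25 and then 415 and 425 CPM. THBS1, its close relative, went the other way, from 1566 ± 14.8 to 242 ± 4.78 CPM. FBLN1 rose from 195 to 1237 CPM and FMOD from 1.79 to 45.4 CPM, whereas FBLN5, needed for elastic fibres, fell from 215 to 14.9 CPM and LTBP2 from 299 to 21.8 CPM. Among matrix proteases and their inhibitors 17 of 29 rose and 11 fell (median 0.57). ADAMTS5 and ADAMTS15, which like ADAMTS4 cleave aggrecan, rose from 100.4 to 332 CPM and from 9.77 to 40.5 CPM.

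Most listed genes of cell adhesion and shape fell. Of 26 integrin and laminin chains 17 fell and 6 rose (median -0.54). ITGA3, a laminin receptor chain, was at 269 and 275 and then 19.1 and 19.8 CPM, ITGA8 at 110.1 and 111 and then 9.06 and 7.59 CPM, and the laminin chain LAMA3 at 13.1 and 12.8 and then 0.300 and 0.437 CPM. ITGB8, a chain of a receptor that activates latent TGF-beta, rose from 2.74 to 57.8 CPM and LAMA1 from 8.23 to 63.7 CPM. Of 32 actin and focal adhesion genes 29 fell, 21 by more than 2-fold, and 3 rose (median -1.29). TAGLN, an actin-bundling protein, was at 789.6 and 810.1 and then 5.64 and 5.51 CPM, and the tropomyosin TPM2 at 1443 and 1451 and then 320.1 and 320.1 CPM. The smooth muscle actin ACTA2 fell less, from 98.6 ± 2.09 to 65.0 ± 0.762 CPM. Of 23 tubulins and microtubule proteins 19 fell and 2 rose (median -1.26). TUBA1A was at 984 and 994 and then 305 and 309.9 CPM, TUBB2A at 197 and 204 and then 46.5 and 45.1 CPM, and MAP1A at 891 and 909 and then 262 and 251 CPM. TUBB, the member with the highest CPM at day 0, fell from 1376 ± 14.6 to 583 ± 7.96 CPM.

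Growth factor genes turned over in both directions. Of 37 ligands 16 rose and 18 fell (median -0.22), 12 and 11 of them by more than 2-fold. FGF10, a mesenchymal ligand of epithelial FGF receptors, was at 0.158 and 0.756 and then 53.9 and 56.8 CPM, NRG1, a ligand of ERBB receptors, at 73.8 and 76.4 and then 1062 and 1061 CPM, and HGF, the ligand of MET, at 159.6 and 157 and then 1173 and 1146 CPM. GAS6, which activates AXL and TYRO3, fell from 934 to 125 CPM, and the matricellular protein CCN1 from 345 to 23.7 CPM. PDGFB, lost by the rule above, fell from 220 and 251 counts to 1 and 0. Receptor tyrosine kinases rose in 17 and fell in 12 of 30 cases (median 0.76). FGFR4 was at 1.81 and 2.30 and then 107 and 108 CPM and ROR2, a WNT5A receptor, at 2.29 and 2.68 and then 95.8 and 98.3 CPM. EPHB2 and EPHA2, receptors for ephrins, fell from 193 to 21.0 CPM and from 97.2 to 17.1 CPM, and TYRO3 from 57.7 to 11.3 CPM. In the IGF axis 12 of 18 rose and 5 fell (median 1.6). Besides the binding proteins above, the protease PAPPA, which cleaves IGFBP4, rose from 134 to 650.3 CPM, and the adaptor IRS2 from 16.2 to 53.2 CPM, while IGFBP6 and IGFBP7 fell from 176 to 34.0 CPM and from 645 to 142 CPM.

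Of 45 tested G protein-coupled receptors 16 rose and 22 fell (median -0.52). Both endothelin receptors rose: EDNRA was at 8.48 and 7.97 and then 288 and 285 CPM, and EDNRB at 7.10 and 7.56 and then 184 and 181 CPM. EDNRB had reached 169 CPM by day 2 and EDNRA 12.8 CPM. The bradykinin receptor BDKRB2 rose from 263 to 868 CPM. The chemokine scavenger ACKR3 fell from 44.8 to 1.23 CPM and the thrombin receptor F2R from 363 to 99.3 CPM.

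In the TGF-beta and BMP family, whose ligands are held in check by secreted antagonists, ligands and antagonists moved both ways. Of 33 genes 16 rose and 15 fell, with a median of 0.11 (-0.10 with library totals, 0.04 without day 5 replicate 1). BMP6 went from 0 and 1 counts to 270 and 306, and TGFB3 was at 1.22 and 0.894 and then 38.9 and 39.4 CPM. The antagonists parted: follistatin, FST, rose from 75.5 ± 0.0305 to 854 ± 10.1 CPM and gremlin, GREM1, fell from 215 ± 0.0684 to 14.9 ± 0.0596 CPM, after 811 CPM at day 2. ID3 and ID4, inhibitors of bHLH factors induced by BMPs, rose from 104 to 418 CPM and from 0.556 to 9.59 CPM. In the WNT and NOTCH list 20 of 32 rose and 11 fell (median 0.90). WNT2 was at 0.513 and 0.206 and then 19.6 and 18.0 CPM, the NOTCH target HEY1 at 0.158 and 0.309 and then 28.9 and 30.2 CPM, and its ligand JAG1 at 44.9 and 45.6 and then 175 and 167 CPM. The ligand DLL4 fell from 57.9 to 0.739 CPM after 119.7 CPM at day 2, and DKK3 fell from 2399 to 833 CPM.

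Genes of neuronal function moved in both directions, in shares to be read beside the 35.8% higher and 34.1% lower of all tested genes. Axon guidance genes rose in 17 and fell in 15 of 38 cases, and had a median of 0.12 (-0.08 with library totals, 0.05 without day 0 replicate 2). The semaphorin receptors NRP1 and NRP2 rose from 45.2 to 176 CPM and from 76.6 to 334 CPM, the slit receptor ROBO1 from 72.2 to 248 CPM and the netrin receptor UNC5B from 5.20 to 56.8 CPM. SEMA6A fell from 74.6 to 12.3 CPM and the netrin NTN4 from 50.0 to 8.48 CPM. Voltage-gated channels rose in 8 and fell in 14 of 28 cases (median -0.22). SCN9A, a sodium channel of sensory neurons, was at 68.8 and 67.2 and then 1.38 and 1.26 CPM, and the calcium channel CACNA1G at 11.4 and 12.3 and then 0.600 and 0.437 CPM. CACNA1C, the L-type calcium channel of muscle and brain, went the other way, from 20.6 ± 2.00 to 169 ± 6.86 CPM. Of the synaptic and secretory vesicle genes 12 rose, 8 fell and 8 were not called of 28 tested (median -0.06), or 9 higher and 11 lower with library totals. RAB3B, a GTPase of regulated exocytosis, was at 312 and 324 and then 13.5 and 11.8 CPM. NLGN1, a postsynaptic adhesion protein, rose from 4.94 to 24.2 CPM and SCG5, a chaperone of a prohormone convertase, from 1.28 to 11.2 CPM, while the synaptic calcium sensor SYT1 fell from 9.38 to 4.72 CPM. SYT7, another synaptotagmin, went from 1 and 0 counts to 249 and 274.

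Mesenchymal transcription factors rose in 20 of 29 cases and fell in 7 (median 0.57). HIC1 rose from 31.5 ± 2.08 to 222 ± 9.12 CPM, FOXC1 was at 18.3 and 18.4 and then 105 and 109 CPM, and TCF21, which marks precursors of fibroblasts, at 150.3 and 158 and then 447 and 469.8 CPM. Of 33 HOX genes 20 were not tested. Among the 13 tested 7 rose and 3 fell, with HOXA5 from 5.76 to 38.9 CPM and HOXA3 from 5.86 to 27.9 CPM among the higher and HOXB7 from 21.0 to 10.7 CPM among the lower. Immediate early and stress factors rose in 14 and fell in 12 of 28 cases. KLF9 was at 15.5 and 13.3 and then 143 and 135 CPM and FOS at 0.671 and 0.584 and then 12.8 and 14.5 CPM, while its relative FOSL1 fell from 81.1 ± 4.44 to 7.37 ± 0.238 CPM. Clock genes rose in 9 and fell in 6 of 17 cases, or 7 and 7 with library totals. PER1, a repressor in the clock, rose from 9.40 to 31.8 CPM, and ARNTL, an activator, fell from 13.2 to 6.05 CPM. In the list of FOXO and C/EBP genes 12 of 19 rose and 5 fell. FBXO32, a ubiquitin ligase component of muscle atrophy, rose from 7.43 to 39.3 CPM and TXNIP, which inhibits thioredoxin and glucose uptake, fell from 526 to 129 CPM after 2679.9 CPM at day 2. FOXO1 itself had 0 and 5 counts and then 17 and 9, and it was no longer called when replicate 1 of day 0 (edgeR adjusted p = 0.059) or of day 5 (edgeR adjusted p = 0.092) was left out.

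Antiviral and antigen presentation genes fell. All 29 interferon-stimulated genes fell, 28 of them by more than 2-fold (median -4.45). IFIT3, an antiviral RNA-binding protein, was at 147 and 142 and then 3.12 and 3.11 CPM. OAS1 went from 1759 and 2079 counts to 1 and 1. Of 17 antigen presentation genes 14 fell and 2 rose (median -1.38). The class I chains HLA-B and HLA-C fell, HLA-B from 1247 to 387 CPM and HLA-C from 1686 to 494 CPM, where reads shared between these similar genes leave the split between them uncertain. The immunoproteasome subunit PSMB9 fell from 41.2 to 3.65 CPM and the peptide transporter TAP1 from 232 to 61.1 CPM, and B2M, the shared light chain, fell less, from 2706 to 1658 CPM. Of 27 tested cytokines and chemokines 14 were higher, 5 lower and 8 not called (median 1.21). Of the 33 listed, 16 had a mean of at least 1 CPM at day 0 and 24 at day 5. For members near 0 at day 0, such as CCL7, the filter on low counts largely sets the direction. LIF was at 151 and 158 and then 976 and 998 CPM, IL11 at 9.19 and 11.5 and then 128 and 135 CPM, and IL1B at 0.276 and 0.241 and then 49.1 and 46.6 CPM, below its day 2 mean of 314 CPM. CSF1, a growth factor of macrophages, fell from 104 to 23.7 CPM. Of 27 complement and coagulation genes 14 rose and 12 fell. The anticoagulant receptor THBD was at 1.93 and 3.13 and then 111 and 108 CPM and the protease inhibitor A2M at 43.2 and 42.5 and then 605 and 615 CPM, while tissue factor, F3, fell from 1393 to 83.0 CPM.

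Cell division genes were lower. Of 31 mitosis genes 27 fell and 0 rose (median -1.15), and of 32 DNA replication genes 21 fell and 1 rose (median -0.96). CCNB1, the mitotic cyclin, was at 25.8 and 26.2 and then 7.32 and 5.57 CPM, and RRM2, which makes deoxynucleotides, at 24.0 and 24.9 and then 5.16 and 4.80 CPM. MKI67 was at 15.5 and 14.1 and then 5.76 and 6.82 CPM, above its day 2 mean of 0.623 CPM. PCNA, the replication clamp, was the gene that rose, from 52.0 to 86.8 CPM, and without day 5 replicate 2 there were 2 such genes. Of 29 genes of kinase inhibitors and p53 targets 16 rose and 11 fell (median 0.36). The inhibitors of cyclin-dependent kinases parted: CDKN1C was at 5.21 and 5.19 and then 143 and 145 CPM (4.79 ± 0.07), CDKN1B rose from 24.1 to 53.7 CPM and CDKN1A fell from 1505 to 733 CPM.

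Of 29 glycolysis genes 21 fell and 4 rose (median -0.61). The hexokinase HK2 was at 103 and 105 and then 12.7 and 11.9 CPM and the glucose transporter SLC2A1 at 209 and 211 and then 29.4 and 31.0 CPM. Sterol synthesis genes fell in 17 and rose in 4 of 24 cases (median -0.44). SREBF1, which encodes a lipogenic transcription factor, rose from 55.3 to 154 CPM. Genes of lipid droplets and fatty acids rose in 16 and fell in 13 of 32 cases, and had a median of 0.13 (-0.08 with library totals). ABHD5, the coactivator of the main triglyceride lipase, rose from 16.9 to 96.2 CPM and G0S2, an inhibitor of that lipase, from 0.185 to 14.4 CPM, while the monoglyceride lipase MGLL fell from 271 to 38.2 CPM. Oxidative stress genes fell in 26 and rose in 3 of 30 cases (median -1.41). Thioredoxin, TXN, was at 449 and 454 and then 49.5 and 49.8 CPM and the aldose reductase AKR1B1 at 1199 and 1207 and then 199 and 206 CPM. AKR1B1 had stood at 2085 CPM at day 2. Metallothioneins and zinc transporters rose in 4 and fell in 2 of 9 cases, or 0 and 4 with library totals and 2 higher without day 0 replicate 2, and ATF4 stress genes in 9 and 7 of 21, or 7 and 11 with library totals.

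Proteasome and most lysosome genes were lower, ribosomal proteins and endoplasmic reticulum chaperones mostly higher, and aminoacyl-tRNA synthetases mostly lower. Of 31 proteasome subunits 30 fell and 0 rose (median -0.60), mostly by less than 2-fold. PSMC1 was at 128 and 121 and then 50.4 and 50.8 CPM. Lysosomal genes fell in 22 and rose in 10 of 38 cases (median -0.35). The cathepsins CTSK and CTSD fell from 407 to 98.1 CPM and from 939.7 to 306 CPM, and CTSZ rose from 23.8 to 66.5 CPM. Endoplasmic reticulum chaperones and genes of the unfolded protein response rose in 16 and fell in 1 of 23 cases (median 0.58), or 15 and 7 with library totals. XBP1, a transcription factor of that response, was at 63.2 and 61.2 and then 162 and 158 CPM and HYOU1, an endoplasmic reticulum chaperone, at 137 and 142 and then 359 and 350.3 CPM. Ribosomal protein genes rose in 36 and fell in 1 of 38 cases (median 0.53), or 32 and 4 with library totals, and their many pseudogenes leave the counts of each uncertain. RPL3 was at 1002 and 1000.2 and then 1873 and 1902 CPM. Aminoacyl-tRNA synthetases fell in 15 and rose in 2 of 20 cases (median -0.34), and 1 rose without either day 0 library or without day 5 replicate 1. WARS1, the tryptophan enzyme, which interferon also induces, was at 465 and 465 and then 107 and 105 CPM. Nuclear genes of the respiratory chain rose in 16 and fell in 9 of 33 cases, and had a median of 0.10 (-0.11 with library totals, where 7 were higher and 16 lower). The 13 mitochondrially encoded mRNAs all rose (median 0.54), 11 of them with library totals.

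The annotation columns of the deposited table were read for 2677 terms with 15 to 200 tested genes. They are described by their share of members that moved by more than 2-fold, with no test, beside 9.74% higher and 10.3% lower among all tested genes. The highest share upward was in lipid transporter activity, with 11 of 21 members higher and 3 lower. Its members included ABCA6, ABCA8, ABCA9 and ABCA10, transporters encoded side by side on chromosome 17. ABCA6 was at 0.197 and 0.756 and then 14.5 and 12.8 CPM, and ABCA8 at 3.35 and 2.20 and then 58.1 and 59.8 CPM. Next came cyclic-nucleotide phosphodiesterase activity with 10 of 20 higher and 2 lower, and matrix constituents that give tensile strength, the collagens, with 14 of 30 higher and 1 lower. Synaptic membrane adhesion had 7 of 16 higher and 1 lower, PTPRD among the higher. The other terms of highest share were cell development (11 higher and 3 lower of 25), aortic valve morphogenesis (9 higher and 4 lower of 21), odontogenesis (11 higher and 4 lower of 26), and cochlea development (8 higher and 2 lower of 19).

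Downward, the highest share was in type I interferon signalling, with 31 of 51 members lower by more than 2-fold and 2 higher. The interferon gamma response (24 of 49, 1 higher) and the response to virus (41 of 87, 5 higher) came with it. MHC class I protein binding (8 of 15, 0 higher) was led by TAP1 and TAP2. Intracellular transport along the cytoskeleton (9 of 18, 1 higher) and the regulation of synapse organisation (7 of 15, 1 higher) shared tubulin genes among their lower members. The list closed with restraint of T cell receptor signalling (9 of 18, 1 higher) and calcium release through phospholipase C (7 of 15, with 4 higher), whose lower members included the thrombin receptor F2R. Among the 282 pathway terms, ranked apart after their values were seen, collecting duct acid secretion had the highest share downward, 8 of 20 with 0 higher. Its lower members were mostly subunits of the proton pump V-ATPase, such as ATP6V1A, from 117 to 48.3 CPM, and ATP6V0E1, from 339 to 121 CPM. Protein digestion and absorption had the highest share upward, 22 of 61 with 4 lower, many of them collagens.

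**Figure D5:**
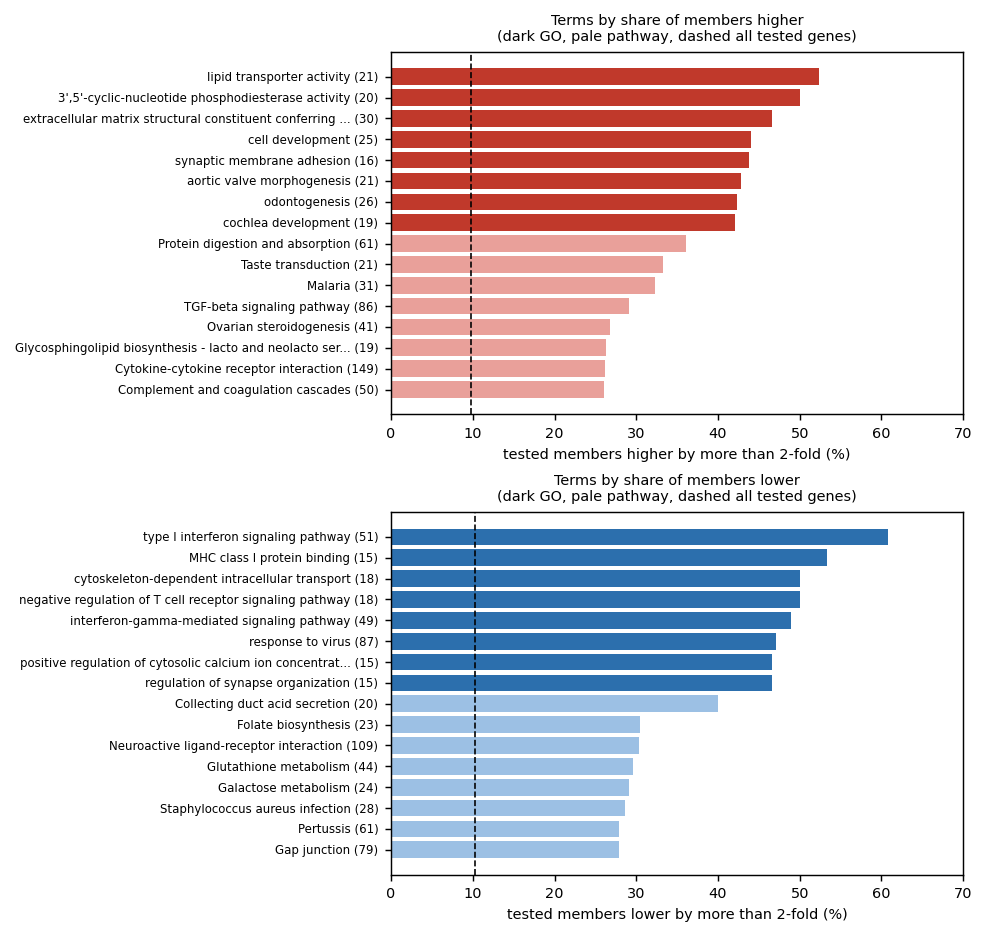
Share of tested members (percent; number tested in parentheses) higher by more than 2-fold (top) and lower by more than 2-fold (bottom) in the annotation terms of highest share, GO terms dark and pathway terms pale; dashed lines mark 9.74% and 10.3%, the shares among all tested genes. Type I interferon signalling reaches 60.8% downward and lipid transporter activity 52.4% upward.

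Gene classes differed in their balance. By GENCODE release 29 type, 13454 tested genes were protein-coding, of which 1279 were higher and 1513 lower by more than 2-fold (9.51% and 11.2%). Of 1944 long noncoding genes 240 were higher and 118 lower (12.3% and 6.07%), with a median log2 fold change of 0.51 against -0.02 for coding genes. The strand setting of the counts is not given, so reads of an overlapping gene cannot be told apart from theirs. MIR4435-2HG and CYTOR, near-identical host genes whose split is uncertain, fell from 112 to 3.37 CPM and from 53.7 to 2.94 CPM. LINC01619 rose from 26.9 to 259 CPM and LINC02593 from 7.84 to 168 CPM. These noncoding genes were chosen after their values were seen.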

How the data were processed

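RNA was sequenced from BJ cells at day 0, day 2 and day 5, in TruSeq RNA libraries made from total RNA per the labels' protocols, 2 libraries a day. The authors deposited 1 table of expected counts for 60843 genes, of which 87.2% of values were whole, made on build GRCh38 as the submitters' processing notes name it. Which aligner and counter made it, with which annotation release and strand setting, is not given in the sources used here. For the present work, counts were rounded, 172 genes without a name (0.0356% to 0.0475% of counts) were left out, and where several genes shared a symbol (76 symbols) the most abundant 1 stands for it in lists.

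Genes were filtered with filterByExpr (minimum count 10, minimum total 15), scaled with TMM factors and fitted over all 6 libraries, with no covariate, by edgeR 4.0.16 (R 4.3.3) with glmQLFit, leaving 3 residual degrees of freedom. Calls use glmQLFTest with Benjamini-Hochberg adjustment over the 16327 tested genes, and calls of more than 2-fold use glmTreat at a log2 fold change of 1. Floors and intervals cover counting error only. DESeq2 1.42.0 and limma 3.58.1 served for alternatives, beside other scalings, filters and left-out libraries. Counts were simulated for 15954 genes of this comparison, with 65, 67 and 64 genes changed 1.5-fold, 2-fold and 4-fold. Of these, 56.9%, 74.6% and 93.75% were recovered, with 16 false calls. The glmTreat call recovered 0%, 2.99% and 76.6% of them. So few genes were changed that the scaling and false calls were not tested under a shift as wide as that of the data, with 69.9% of genes called.

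The 57 lists (1451 genes), the members and the rules were chosen with earlier results of these data known. Genes named are the 12 with the largest fold each way, with at least 5 CPM on average and libraries that did not overlap. Also named are the 10 with the largest gain and loss of CPM. From each list came those with the lowest adjusted p (up to 5) and the largest fold (up to 3). The rest were markers named whatever their result, genes gained or lost, and the 8 annotation terms of highest share each way. Other genes named were chosen after their values were seen, as were the 2 promoters a list printed among those that hold the motif. Promoters and their positions are RefSeq's (GRCh38.p14), and gene types and positions are those of GENCODE release 29. Some genes that these rules chose are not reported here.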

Additional observations from a re-analysis of the deposited data

How the results depend on the processing

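The count of 11405 called genes was 11377 with RLE size factors, those of DESeq2, in edgeR, 11314 with library totals, 10444 with DESeq2, 11414 with limma-voom, 11588 with no count filter, 10217 with at least 1 CPM in at least 4 libraries and 11271 from the day 0 and day 5 libraries alone. Leaving out 1 library gave 10298 to 10533 called genes and 2909 to 3003 changed by more than 2-fold, against 3278. A lone library of a day was then assumed to vary like the others. DESeq2 gave 1049 genes higher by more than 2-fold, against 1591, and the cause was not tested. Replicate numbers did not pair the libraries: deviations of same-numbered libraries from their day's mean had correlations of 0.003, -0.002 and -0.005. With the replicate block, 11302 genes were called and 3198 changed by more than 2-fold. With library totals the median turned below 0 for matrix glycoproteins (-0.0048), RGS proteins (-0.020), TGF-beta and BMP genes (-0.10), axon guidance genes (-0.082), lipid droplet genes (-0.078), nuclear respiratory genes (-0.11), ATF4 stress genes (-0.19), endothelial markers (-0.12), metallothioneins (-0.05) and epithelial markers (-0.01), by the shift of all genes that this scaling makes. Of 1368 counts of higher or lower members of lists under other settings, 40 moved by over 1.5 times, 12 of them with library totals and 11 with a library left out. Leaving out 1 library moved these list medians by over 1.5 times. Without day 0 replicate 1 they were 0.327 for matrix glycoproteins, 0.299 for RGS proteins, 0.0493 for TGF-beta and BMP genes and -0.162 for collagen processing enzymes. Without day 0 replicate 2 they were 0.0532 for RGS proteins, 0.0461 for axon guidance genes, 0.0597 for nuclear respiratory genes, -0.0525 for collagen processing enzymes and -0.335 for voltage-gated channels. Without day 5 replicate 1 they were 0.329 for matrix glycoproteins, 0.0421 for TGF-beta and BMP genes, 0.0847 for lipid droplet genes, 0.251 for HOX genes, -0.830 for G protein-coupled receptors and -0.340 for voltage-gated channels. Without day 5 replicate 2 they were 0.0401 for matrix glycoproteins, 0.167 for TGF-beta and BMP genes, 0.227 for immediate early and stress factors and -0.0105 for collagen processing enzymes. For the synaptic and secretory list, the median ranged from -0.0874 to 0.0118 when 1 library was left out, and was above 0 without day 5 replicate 1. Of 228 named genes with a fold change, 227 kept their direction and call under each of these settings that tested them, and FOXO1 did not. Many named genes were chosen for a low adjusted p or a large change in these same libraries. That choice largely set in advance that their calls would be kept. Genes under 1 CPM, such as FOXO1, rest on few counts and are limited by depth.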
